A study of Mus musculus with 4 samples.

Results

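The genes examined here encode mammalian enzymes that write and erase histone methylation and acetylation, and they were taken from the deposited mouse expression table by name. The rule kept protein-coding genes named Kdm, Kmt, Setd, Hdac, Sirt, Kat or Prmt with a family number, without Kdm5d, and it found 66 of the 51826 genes in the table. They fall into 6 classes, with 17 lysine demethylases, 16 lysine methyltransferases, 11 zinc-dependent histone deacetylases, 7 sirtuins, 7 lysine acetyltransferases and 8 arginine methyltransferases. The rule itself uses no expression value, although the members were chosen with earlier results of these data known. RNA sequencing was done on polyadenylated RNA of mouse embryonic stem cell derivatives of C57BL/6 background at day 3 of directed mesoderm differentiation. There were 2 libraries from wild-type cells and 2 from Stk40-/- cells, which lack a pseudokinase, and the series asks what this loss does to the c-JUN protein and to mesoderm formation. All cells had been kept on inactivated feeder fibroblasts with LIF, 3 uM CHIR99021 (a GSK3 inhibitor) and 1 uM PD0325901 (a MEK inhibitor), and were passaged once off the feeders. Both groups then received BMP4 at 10 ng/ml for 2 days and 1 uM CHIR99021 with 0.5% DMSO for 1 more day. The labels do not say how many cell lines or clones stand behind each genotype or whether the libraries are separate cultures, so that a p-value here reflects spread among these 4 libraries and perhaps no more than technical spread.

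Histone tails are modified by enzymes that act against each other. Methyltransferases place methyl groups on lysine or arginine and demethylases remove them from lysine, while acetyltransferases open chromatin and deacetylases close it again, mostly inside large complexes with corepressors or coactivators. Embryonic stem cells leaving pluripotency depend on several of these enzymes, among them the demethylase Kdm1a and the deacetylases Hdac1 and Hdac2, and many of the enzymes also modify proteins other than histones.

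The values are TPM, an abundance scaled for transcript length and library, and their sequencing depth is unknown, so that no counting interval can be given. Stk40 was at 28.9 and 39.9 TPM in wild-type cells against 3.54 and 3.17 TPM in Stk40-/- cells, so its RNA was low where the labels give the deletion. Levels below are TPM, and changes are log2 fold changes of Stk40-/- against wild type on log2(TPM + 1), where the changes of low genes come out too small. The primitive streak and nascent mesoderm markers summed to 1442 and 777 TPM in wild-type cells against 477 and 325 TPM in Stk40-/- libraries, with 10 of 11 tested markers lower without overlap, and Mesp1 was at 0 in 3 of the 4 libraries. Pluripotency markers summed to 1197 and 1337 against 1268 and 1237 TPM, but single markers differed in both directions. Of the 10, 3 were higher and 2 lower without overlap, near the 27.5% and 16.6% of all genes tested. Utf1 was higher (125 and 148 against 229 and 203 TPM) and Dppa5a lower (290 and 326 against 150 and 160 TPM). Feeder fibroblast markers were low throughout (35.8 and 46.0 against 31.2 and 26.7 TPM summed over 12 genes), as were endoderm markers (10.9 and 12.6 against 8.97 and 10.6 TPM over 8 genes), and neuroectoderm markers summed to 73.3 and 83.05 against 86.1 and 121 TPM. The libraries thus differ in marker makeup along with genotype, the part of this in the results below was not tested, and in such bulk samples fewer cells of a type and less RNA per cell cannot be told apart.

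Most of the enzyme genes lay somewhat higher in Stk40-/- cells, while the members with the smallest p were the deacetylase genes Hdac6 and Hdac1, which lay lower. Of the 66 members, 64 averaged 1 TPM or more and were tested, and Kdm4d and Prmt8 did not reach that level. None of the 64 passed limma at an adjusted p under 0.05, and neither did any of the 15739 genes tested (0%). At an unadjusted limma p under 0.05 there were 16 members higher and 2 lower, which is 25.0% and 3.12% of the members beside 6.48% and 4.51% of all genes. In 37 members (57.8%) both Stk40-/- values stood above both wild-type values, against 27.5% of all genes tested, and in 5 (7.81%) both stood below, against 16.6%. The median change of the members was 0.18 on the log2 scale, that of all genes was 0.07, and 50 of 64 members (78.1%) were positive beside 58.6% of all genes. The count of 16 members higher at an unadjusted p was 11 when limma was run without an intensity trend, beside 5.15% of all genes. It was lower still with any 1 of the 4 libraries left out, where a group holds a lone library. With libraries scaled by median-of-ratios size factors, which moved the median of all genes to 0.00, 30 members were higher and 9 lower without overlap, beside 20.7% and 21.9% of all genes, and the median of the members was 0.12.

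**Figure D1:**
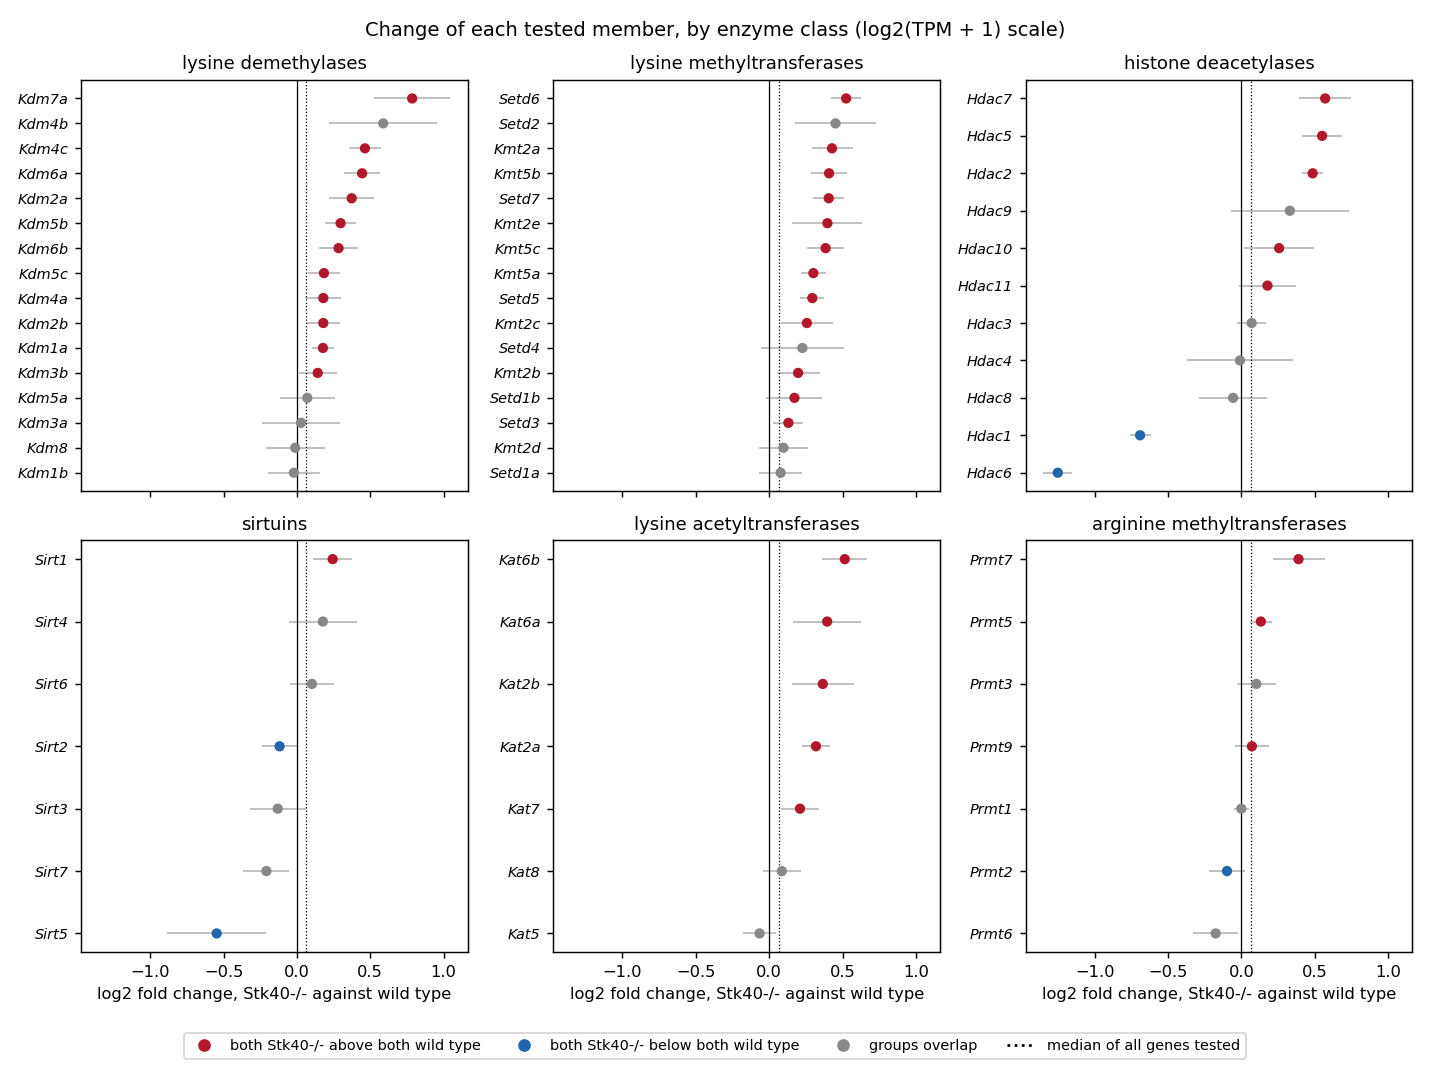
Each point is 1 of the 64 tested genes, placed by its log2 fold change of Stk40-/- against wild type (horizontal axis, log2(TPM + 1) scale) with its limma standard error as a bar, and grouped by enzyme class. All 16 lysine methyltransferases lie right of 0, whereas Hdac1 and Hdac6 lie far to the left of the other deacetylases.

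Across the whole table the difference between genotypes was larger for longer transcripts. Among the other protein-coding genes that averaged 5 TPM or more, the median log2 fold change was -0.02 for genes whose longest transcript is under 2000 bases and 0.19 for those of 7000 bases or more. The enzyme genes are long, with a median longest transcript of 4504 bases against 3356 for the other genes. Their medians in the same bins were 0.14 (4 genes) and 0.37 (15 genes), with 1 and 11 genes higher without overlap. In all, 41 of 62 members lay above the median of other genes of like length. After the median of the length bin was subtracted, the median of the 62 was 0.10, down from 0.18. By class this remainder was 0.20 for lysine methyltransferases and 0.20 for acetyltransferases, 0.08 for demethylases, -0.01 for deacetylases, -0.00 for arginine methyltransferases and -0.15 for sirtuins. Between the libraries of 1 genotype the same longest bin of other genes had median differences of -0.04 (wild type) and -0.06 (Stk40-/-). Libraries were read at 100 or 150 bases and the labels do not say which was which, so that read length and genotype cannot be told apart. Exons of 28 members overlap those of another gene, 25 of them on the opposite strand.

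**Figure D2:**
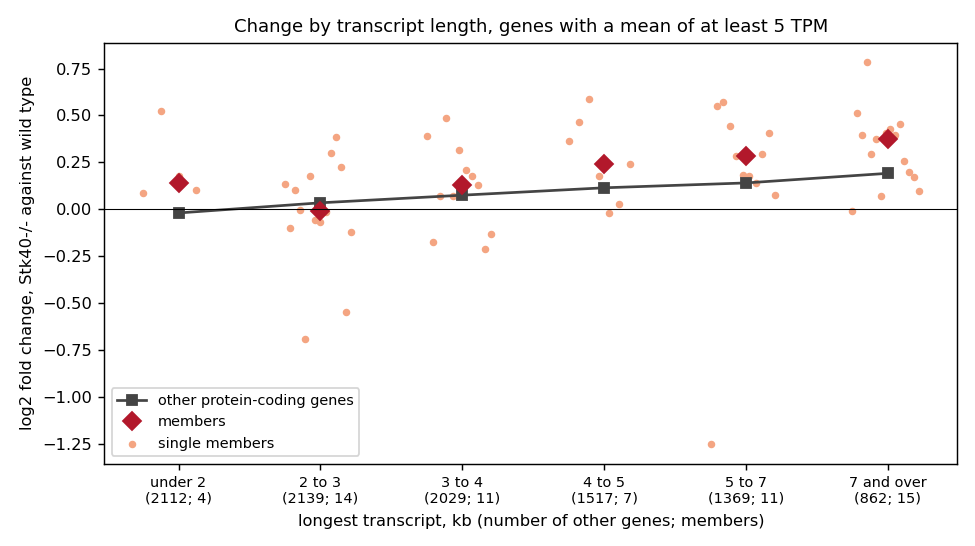
Log2 fold change of Stk40-/- against wild type (vertical axis) by length of the longest transcript in kb (horizontal axis), for protein-coding genes that averaged 5 TPM or more; squares joined by a line are medians of other protein-coding genes, diamonds are medians of the enzyme genes, and dots are single enzyme genes. Both medians are highest in the bin of the longest transcripts, 0.19 and 0.37.

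Because the series concerns c-JUN, a subunit of the AP-1 transcription factor, the promoters were searched for its motifs. RefSeq promoter windows on GRCm38, from 250 bases before to 50 after a start, were matched by symbol for 54 of the 66 genes, and the unmatched ones were Hdac1, Hdac3, Hdac10, Kat6a, Kdm2a, Kdm3b, Kdm4b, Kdm5a, Kdm6b, Kmt2b, Kmt2e and Setd1b. The AP-1 motif TGANTCA, read on both strands, was in the promoters of 7 members (12.96%), Hdac7, Hdac9, Kat2b, Kat8, Kdm3a, Kdm4a and Kdm5c, and in those of 8.97% of the 27025 genes with a window in the promoter table. The related TGACGTCA was in 1 member (1.85%), Prmt9, beside 2.03% of all genes, and the E-box CACGTG, also the same on both strands, in 7 members (12.96%) beside 8.09%. Shown here are the stretches of Kat2b, Kdm4a and Prmt9, as members with one of the first 2 motifs before the start, outside annotated exons, and with groups that did not overlap. The motif is in capitals, and Kdm5c is left out because its window lies in an annotated exon of the gene.
Kat2b (chr17:53566721-53566777, plus strand): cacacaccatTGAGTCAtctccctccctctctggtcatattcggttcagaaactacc
Kdm4a (chr4:118180187-118180273, minus strand): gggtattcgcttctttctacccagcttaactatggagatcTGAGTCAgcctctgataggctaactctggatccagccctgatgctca
Prmt9 (chr8:77549313-77549396, plus strand): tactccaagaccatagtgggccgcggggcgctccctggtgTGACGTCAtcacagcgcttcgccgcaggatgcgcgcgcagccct
The motifs begin 240, 190 and 44 bases before the start, in that order. A match is a run of letters and says nothing of binding. The log2 fold changes of the 3 genes were 0.37, 0.18 and 0.07.

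Class I deacetylases, the catalytic subunits of the nuclear corepressor complexes, held one gene that was lower and one that was higher, each with little spread between libraries. Hdac1 (ENSMUSG00000028800.15; GRCm38 chromosome 4, 129516104 to 129542713), which works in the NuRD, SIN3 and CoREST complexes, was at 174 and 170 TPM in wild-type cells against 107 and 105 TPM in Stk40-/- cells. The groups were far apart compared with the spread inside each, at 172 ± 2.67 and 106 ± 1.60 TPM (SD, n = 2 each). This is a log2 difference of -0.69 (SE 0.07, limma adjusted p = 0.196, unadjusted p = 0.000444). Hdac2 (ENSMUSG00000019777.16; chromosome 10, 36974544 to 37001889), its close paralog in the same complexes, differed in the opposite direction. It was at 99.9 and 99.5 TPM in wild-type cells against 140.2 and 139.96 TPM in Stk40-/- libraries, a log2 fold change of 0.49 (SE 0.07, limma adjusted p = 0.265). With any 1 library left out the change of Hdac1 stayed between -0.71 and -0.67 and that of Hdac2 between 0.48 and 0.49. The ratio of Hdac1 to Hdac2 was therefore 1.74 and 1.71 in wild-type cells and 0.765 and 0.751 in Stk40-/- cells, so that the order of the pair was exchanged. Their sum differed less, at 274 and 270 TPM against 248 and 245 TPM.

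Hdac3, the catalytic subunit of the NCoR and SMRT complexes, was at 58.9 and 61.7 TPM in wild-type cells against 66.5 and 60.4 TPM in Stk40-/- cells, so that the groups overlapped. Hdac8, which deacetylates the cohesin subunit SMC3, was low and overlapped too (5.65 and 7.34 against 6.87 and 5.51 TPM). Within class I, Hdac1 held 51.4% and 50.2% of the summed TPM in wild-type libraries against 33.4% and 33.8% in Stk40-/- libraries, and Hdac2 held 29.5% and 29.4% against 43.7% and 45.01%. The summed class was at 338.4 and 338.7 TPM against 321 and 311 TPM.

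**Figure D3:**
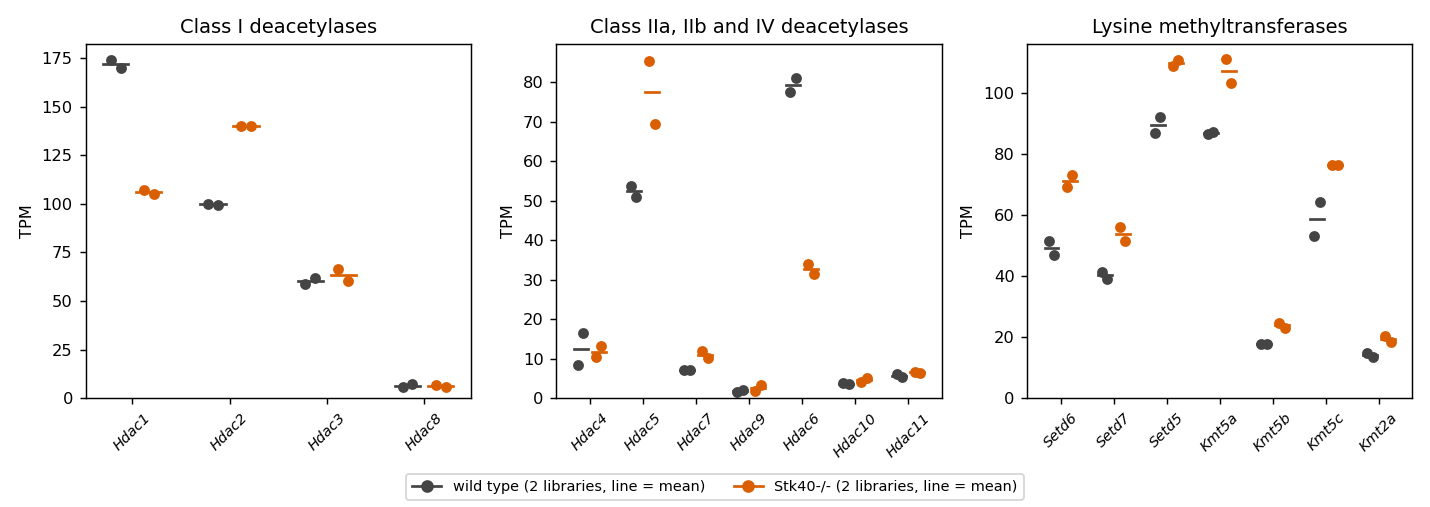
TPM in each library (vertical axis, linear from 0) for the deacetylase genes and for 7 lysine methyltransferase genes, with 2 dots per genotype and a line at their mean. Hdac1 and Hdac2 exchange their order between wild type and Stk40-/-, and Hdac6 averages 79.2 TPM in the wild-type pair but 32.7 TPM in the Stk40-/- pair.

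Among the class II and class IV deacetylase genes, Hdac6 alone was lower without overlap, while Hdac5, Hdac7, Hdac10 and Hdac11 were higher without overlap. Hdac6 (ENSMUSG00000031161.15; chromosome X, 7930120 to 7947889), a mainly cytoplasmic enzyme that deacetylates tubulin, had the largest difference of all members. It was at 77.4 and 81.0 TPM in wild-type cells against 34.0 and 31.4 TPM in Stk40-/- cells, 0.413 times the wild-type mean (log2 fold change -1.25, SE 0.10, limma adjusted p = 0.139, unadjusted p = 0.000148). The other class IIb gene, Hdac10, known as a polyamine deacetylase, was low in all libraries but also without overlap, on the higher side (3.84 and 3.57 against 4.14 and 5.14 TPM). The class IIa genes Hdac5 and Hdac7 encode signal-regulated repressors that shuttle between nucleus and cytoplasm and bind MEF2 factors. Hdac5 was at 53.7 and 50.9 TPM in wild-type cells against 85.4 and 69.4 TPM in Stk40-/- libraries (a log2 difference of 0.55, SE 0.13, limma adjusted p = 0.385). Hdac7 was at 7.03 and 7.09 against 12.0 and 10.04 TPM (log2 fold change 0.57, SE 0.18, limma adjusted p = 0.417). In both genes Stk40-/- library 1 was the higher of its pair. The class IIa genes Hdac4 (8.31 and 16.6 against 10.4 and 13.2 TPM) and Hdac9 (1.5004 and 2.01 against 1.697 and 3.41 TPM) overlapped. Hdac11, the only class IV gene, was at 6.11 and 5.29 against 6.74 and 6.40 TPM. Without Hdac1 and Hdac6, the other 9 deacetylase genes summed to 245 and 254 TPM in wild-type cells against 334 and 314 TPM in Stk40-/- libraries. Of the 9, 5 lay higher without overlap, beside 27.5% of all genes tested. Hdac1 and Hdac6 were left out after they were seen to be lower, so a higher sum of the rest follows in part from that choice.

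The chromosomal surroundings of the lower pair differed. Within 1 Mb of Hdac6, all 32 other tested protein-coding genes had negative fold changes. Of these, 30 were lower without overlap, against 16.6% of all genes tested. Their median was -1.20, close to the -1.25 of Hdac6 itself. One of those neighbours is another chromatin enzyme gene, Suv39h1, which encodes a methyltransferase for lysine 9 of histone H3 and was at 84.5 and 79.0 against 36.3 and 32.5 TPM (log2 fold change -1.23, limma adjusted p = 0.162). The other 469 tested protein-coding genes of X had a median of 0.07. Whether Hdac6 differed apart from its neighbourhood was not tested. Around Hdac1 the 40 tested neighbours within 1 Mb had a median of 0.06 and ranged from -1.18 to 0.60. Of the 40, 7 were lower and 11 higher without overlap, near the 16.6% and 27.5% of all genes tested. Among the 7 were Rbbp4, Zbtb8os, Bsdc1 and Marcksl1 (-0.24, -0.18, -0.21 and -0.31), close to Hdac1 on the side of lower coordinates. Marcksl1 is the next tested gene, while Zbtb8a and Zbtb8b in the same stretch overlapped. Whether Hdac1 differed apart from these nearest genes was not tested. Hdac1 lies 3.38 Mb from Stk40 on the same chromosome, and the 42 tested genes between them had a median of -0.01 with 21 negative. They ranged from -0.95 to 0.58. Of the 42, 12 were lower and 9 higher without overlap, beside 16.6% and 27.5% of all genes tested. The remaining members on X were not lower: Kdm6a is described below, Kdm5c was at 33.1 and 32.9 against 39.4 and 36.01 TPM, and Hdac8 overlapped. On chromosome 16, whose 399 other tested protein-coding genes had a median of -0.18, the only member is the methyltransferase gene Setd4, which overlapped (18.8 and 26.9 against 32.6 and 21.5 TPM). Outside X and chromosomes 16 and 4 there were 55 tested members, of which 32 were higher and 3 lower without overlap. The shares of all genes tested were 27.5% and 16.6%. The median of the 55 was 0.20, beside 0.07 for all genes.

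**Figure D4:**
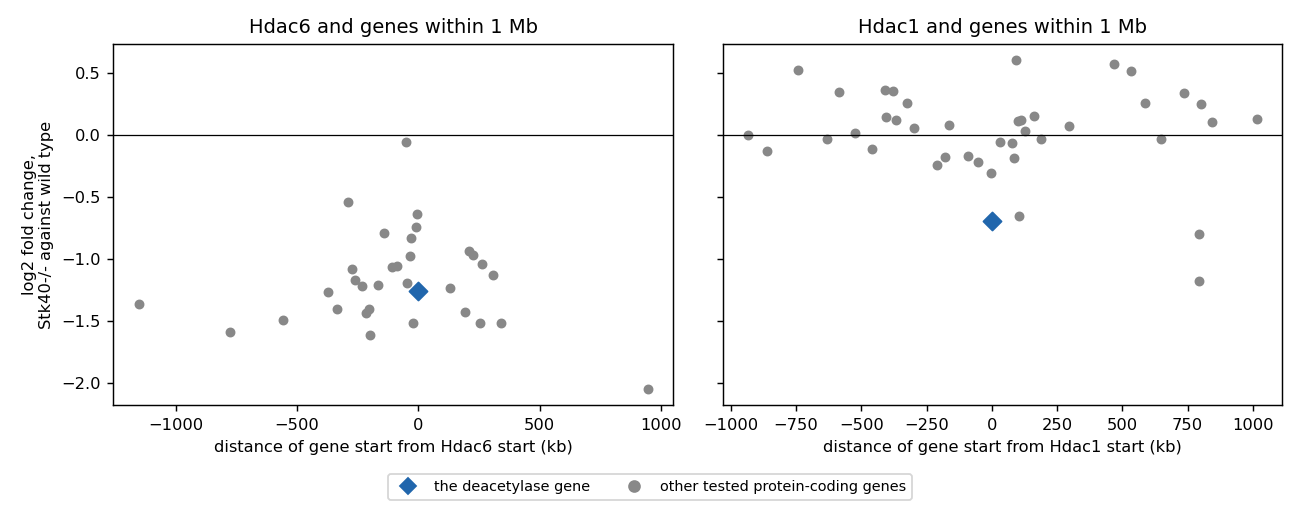
Log2 fold change of Stk40-/- against wild type (vertical axis) of Hdac6 or Hdac1 (diamond) and of the other tested protein-coding genes within 1 Mb (dots), by distance in kb of each gene's lowest coordinate from that of the deacetylase gene. All dots around Hdac6 are negative, while those around Hdac1 lie on both sides of 0.

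Lysine methyltransferases lay higher as a class. All 16 were tested, each had a positive fold change (median 0.30; 58.6% of all genes were positive). Of the 16, 12 were higher without overlap and 0 lower, against 27.5% and 16.6% of all genes, and 7 had an unadjusted limma p under 0.05 and were higher, against 6.48%. The class is long, with a median longest transcript of 7036 bases. Among other protein-coding genes of 7000 bases or more the share higher without overlap was 44.2%. Setd6, known for methylating the NF-kappaB subunit RelA, was at 51.7 and 46.8 TPM in wild-type cells against 69.4 and 73.1 TPM in Stk40-/- cells (a log2 difference of 0.52, SE 0.10, limma adjusted p = 0.312). Setd7, a monomethyltransferase with many targets besides histone H3, was at 41.5 and 39.1 against 56.0 and 51.5 TPM (0.41, SE 0.10, limma adjusted p = 0.400). Setd5, a SET domain protein of the chromatin-modifying machinery, was at 86.8 and 92.1 against 109 and 111 TPM (0.29, SE 0.08, limma adjusted p = 0.401), and its mean was the highest of the class. In these 3 genes the higher wild-type library stayed well under the lower Stk40-/- library.

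The writers of methylation on lysine 20 of histone H4 were all 3 higher without overlap. Kmt5a, which places the first methyl group and is tied to the cell cycle, was at 86.4 and 87.1 TPM in wild-type cells against 111 and 103 TPM in Stk40-/- cells (0.30, SE 0.08, limma adjusted p = 0.401). Kmt5b, which adds further methyl groups, was at 17.8 and 17.6 against 24.8 and 22.9 TPM (0.41, SE 0.12, limma adjusted p = 0.412). Its partner in that step, Kmt5c, was at 53.1 and 64.2 against 76.6 and 76.5 TPM. Summed, the 3 genes were at 157 and 169 TPM in wild-type cells against 213 and 203 TPM in Stk40-/- libraries, a ratio of means of 1.27.

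The COMPASS-type methyltransferases, which act on lysine 4 of histone H3, were less uniform. Kmt2a, known as MLL1, was at 14.7 and 13.4 against 20.2 and 18.4 TPM, without overlap. The enhancer enzyme gene Kmt2c was low and closely repeated (6.10 and 6.03 against 7.45 and 7.44 TPM), while its paralog Kmt2d overlapped (8.58 and 10.1 against 10.3 and 9.82 TPM). Kmt2b was separated by the third decimal only (25.0 and 27.510 against 33.2 and 27.511 TPM). Setd1a, a main source of promoter trimethylation, overlapped (43.2 and 45.1 against 52.5 and 41.5 TPM), and Setd1b was at 6.19 and 6.00 against 6.47 and 7.57 TPM. Setd2, the writer of trimethylation on lysine 36 of histone H3, also overlapped, since the libraries of each genotype differed widely (34.9 and 23.0 against 46.4 and 33.0 TPM). Kmt2e was at 19.2 and 12.4 against 21.7 and 19.7 TPM and the actin histidine methyltransferase gene Setd3 at 67.0 and 69.6 against 79.5 and 70.6 TPM, both without overlap but with wide pairs.

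Among lysine demethylases, 14 of 16 tested genes had positive changes (median 0.18) and 11 were higher and 0 lower without overlap, where the shares of all genes were 58.6%, 27.5% and 16.6%. Kdm4c, an eraser of trimethylation on lysines 9 and 36 of histone H3, was at 27.5 and 29.9 TPM in wild-type cells against 40.1 and 39.8 TPM in Stk40-/- cells (0.46, SE 0.11, limma adjusted p = 0.366). Its relatives Kdm4a (23.2 and 21.7 against 24.4 and 26.8 TPM) and Kdm4b (14.4 and 11.5 against 13.9 and 28.2 TPM) were less alike, because the Kdm4b mean rested on Stk40-/- library 2, without which its log2 difference was 0.10 in place of 0.59. Kdm4d, a gene best known from testis, was at 0, 0.0781, 0.0839 and 0.121 TPM in wild-type libraries 1 and 2 and Stk40-/- libraries 1 and 2, below the level tested.

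Kdm6a and Kdm6b, erasers of methylation on lysine 27 of histone H3, both lay higher. Kdm6a (ENSMUSG00000037369.16; chromosome X, 18162575 to 18279936), known as UTX, was at 15.8 and 15.4 against 21.2 and 22.01 TPM (0.44, SE 0.12, limma adjusted p = 0.401). Kdm6b, known as JMJD3, was at 20.5 and 23.4 against 26.0 and 27.7 TPM. An antisense transcript shares exon sequence with Kdm6b and was itself at 1.01 and 0.893 against 2.97 and 1.54 TPM, and without a stated strand setting the reads of the pair cannot be told apart. Kdm7a, which acts on dimethylated lysines 9 and 27 of histone H3, had the largest positive change of all members, from 5.27 and 3.36 TPM to 7.74 and 8.31 TPM (0.79, SE 0.26, limma adjusted p = 0.439). Its wild-type libraries differed widely, and the log2 difference was 1.05 when the first of them was left out and 0.52 when the second was.

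The remaining demethylase genes had log2 differences between -0.02 and 0.37. Kdm1a, or LSD1, the flavin-dependent eraser of lysine 4 methylation that works beside Hdac1 and Hdac2 in CoREST, was the most abundant demethylase gene, at 119 and 122 against 133 and 139 TPM (0.18, SE 0.08, limma adjusted p = 0.491). Kdm5b, which removes trimethylation from lysine 4, was at 35.9 and 37.9 against 43.7 and 47.6 TPM (0.30, SE 0.11, limma adjusted p = 0.447), while Kdm5a overlapped (26.0 and 30.3 against 25.6 and 34.0 TPM). The CpG island binders Kdm2a (31.1 and 39.3 against 43.7 and 47.6 TPM) and Kdm2b (43.6 and 49.3 against 54.1 and 51.2 TPM) were separated. Kdm3b was at 18.6 and 18.9 against 22.1 and 19.6 TPM, and Kdm3a, its paralog for lysine 9, at 35.5 and 25.3 against 37.0 and 25.3 TPM. Kdm1b and Kdm8 had changes of -0.02 and -0.01, and Kdm1b shares exon sequence on the opposite strand with the far more abundant Dek (151 to 335 TPM).

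Lysine acetyltransferases had a median change of 0.32 over 7 genes, 6 of them positive (58.6% of all genes) and 5 higher and 0 lower without overlap (27.5% and 16.6% of all genes). Kat2a, or GCN5, the acetyltransferase of the SAGA coactivator, was at 60.7 and 60.4 TPM in wild-type cells against 79.3 and 72.4 TPM in Stk40-/- cells (0.32, SE 0.09, limma adjusted p = 0.407). Kat6b, a MYST family enzyme that acts on histone H3, was at 8.51 and 8.10 against 11.9 and 12.7 TPM (0.52, SE 0.15, limma adjusted p = 0.412). For their paralogs the separation was narrower and Stk40-/- library 2 set much of the mean. Kat2b, or PCAF, was at 7.95 and 7.97 against 8.96 and 12.4 TPM, a log2 difference of 0.37 that shrank to 0.15 without that library. Kat6a, or MOZ, was at 13.5 and 13.7 against 14.8 and 22.3 TPM, a difference of 0.40 that shrank to 0.11 without it. Kat7, or HBO1, held about as much of the class sum in each genotype (46.1% and 52.4% against 48.7% in both Stk40-/- libraries) and was at 131 and 163 against 167 and 171 TPM. The log2 difference of Kat7, 0.21, shrank to 0.05 when wild-type library 1 was left out. Kat8, the writer of acetylation on lysine 16 of histone H4, was at 32.2 and 27.8 against 30.7 and 33.1 TPM, and Kat5, or TIP60, at 30.2 and 30.8 against 30.4 and 27.8 TPM, both overlapping.

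Sirtuins, the NAD-dependent deacylases, had a median log2 difference of -0.12, 3 of 7 genes positive, 1 higher and 2 lower without overlap. With 7 genes these counts are not far from the shares of all genes, 58.6%, 27.5% and 16.6%. Their difference from the other classes was not tested. Sirt1, the main nuclear member, was at 22.6 and 21.6 TPM in wild-type cells against 24.5 and 28.4 TPM in Stk40-/- cells (0.24, SE 0.13, limma adjusted p = 0.568). Sirt5, the mitochondrial desuccinylase, was at 11.9 and 10.3 against 5.16 and 10.1 TPM. Its change of -0.55 came mostly from Stk40-/- library 1 and was -0.12 without it. Sirt2, mainly cytoplasmic, was at 30.0 and 33.9 against 29.7 and 28.9 TPM, and the nucleolar Sirt7 at 23.29 and 25.5 against 18.8 and 23.33 TPM, so that the groups of Sirt7 overlapped. The mitochondrial genes Sirt3 (18.4 and 13.7 against 14.7 and 14.1 TPM) and Sirt4 (13.8 and 14.2 against 19.6 and 13.0008 TPM) and the chromatin-bound Sirt6 (14.6 and 14.5 against 14.4 and 17.1 TPM) overlapped. Sirt3 shares exon sequence on the opposite strand with the more abundant Psmd13 (186 to 212 TPM). Sirt7 shares exon sequence on the same strand with the more abundant Mafg (93.6 to 111 TPM).

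Arginine methyltransferases had the highest summed level of the 6 classes and a median log2 difference of 0.07. Prmt1, which makes most of the asymmetric dimethylarginine of the cell, was the most highly expressed of the 66 genes, at 614 and 617 TPM in wild-type cells against 610 and 621 TPM in Stk40-/- cells (615 ± 2.19 and 615 ± 7.68 TPM, SD, n = 2). Its log2 fold change was -0.00 (SE 0.05), and it held between 65.9% and 69.7% of the class sum. Prmt5, which makes symmetric dimethylarginine, was next at 103.97 and 104.6 against 116 and 113 TPM (0.13, SE 0.07, limma adjusted p = 0.576). Prmt7, the monomethylating enzyme, was at 39.2 and 48.1 against 64.6 and 50.7 TPM (0.39, SE 0.18, limma adjusted p = 0.508), and its change was 0.22 without Stk40-/- library 1. Prmt3, which modifies a ribosomal protein, was at 58.6 and 63.5 against 72.3 and 59.4 TPM and overlapped. Prmt2 (20.4 and 20.5 against 19.5 and 18.6 TPM) was lower without overlap, with a log2 difference of -0.10. Prmt6 (23.7 and 21.1 against 21.6 and 18.0 TPM) overlapped, at -0.17. Prmt9 (20.3 and 19.9 against 21.3 and 21.1 TPM) was higher without overlap, at 0.07. Prmt8, a gene known from brain, stayed between 0.138 and 0.796 TPM.

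Summed over each class, the RNA of lysine methyltransferases was at 581 and 587 TPM in wild-type cells against 757 and 695 TPM in Stk40-/- libraries, a ratio of means of 1.24. Demethylases were at 466 and 481 against 550 and 572 TPM (1.18), and acetyltransferases at 284 and 312 against 343 and 352 TPM (1.17). Deacetylases were the 1 class whose sum was lower without overlap, at 496 and 505 against 475 and 450 TPM (0.924). Hdac1 and Hdac6 were the only deacetylase genes lower without overlap. In mean TPM, Hdac1 (172 against 106) and Hdac6 (79.2 against 32.7) each differed by more than the class sum (501 against 463). By gene, 7 of 11 deacetylases were positive (58.6% of all genes), with a median change of 0.18. Of the 11, 5 were higher and 2 lower without overlap, against 27.5% and 16.6% of all genes. The sums of sirtuins overlapped (135 and 134 against 127 and 135 TPM), and those of arginine methyltransferases were at 880 and 895 against 926 and 902 TPM (1.03). Among the genes kept by the name rule, the sums of both lysine methyltransferases and demethylases were thus higher without overlap. The other histone methyltransferases listed below overlapped in sum, at 590 and 612 against 629 and 598 TPM. That sum includes Suv39h1, the neighbour of Hdac6 (84.5 and 79.0 against 36.3 and 32.5 TPM). By gene, 7 of the 18 were higher and 2 lower without overlap, against 27.5% and 16.6% of all genes. The other demethylase-family genes were higher without overlap, at 265 and 231 against 300 and 299 TPM.

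**Figure D5:**
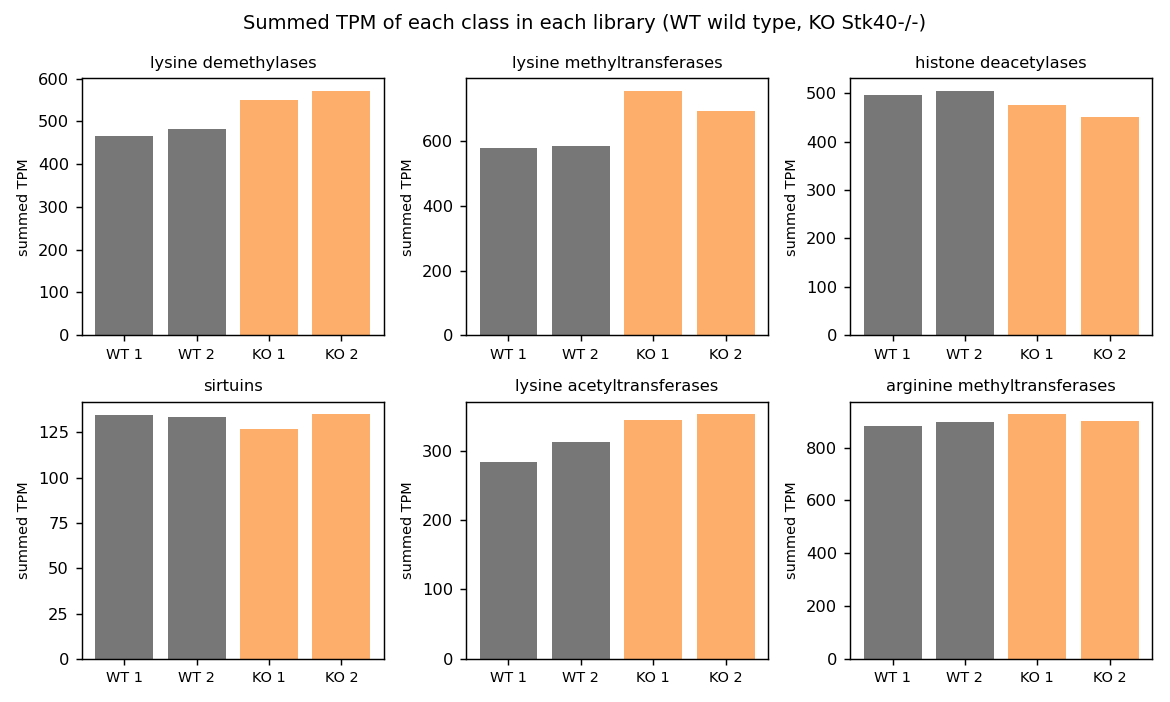
Summed TPM of the genes of each class (vertical axis, linear from 0) in the 2 wild-type (WT, grey) and 2 Stk40-/- (KO, orange) libraries. The methyltransferase bars show the widest gap between genotypes, 581 and 587 against 757 and 695 TPM, and the deacetylase bars are the lower ones in Stk40-/- cells.

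The partners of these enzymes, taken from lists of pathway genes, are given here by count and median, to be read beside the median of 0.07 over all genes and the shares of all genes that were positive (58.6%), higher without overlap (27.5%) and lower without overlap (16.6%). Of 34 tested subunits of HDAC corepressor complexes 26 were positive (median 0.15), 14 were higher and 6 lower without overlap. Ncor1, the corepressor that activates Hdac3, was at 113 and 125 against 167 and 161 TPM, and Sin3a, the scaffold of the SIN3 complex, at 79.1 and 93.4 against 128 and 123 TPM. Suds3, a SIN3 subunit, was lower (51.2 and 53.1 against 40.3 and 39.3 TPM). Of 11 tested COMPASS subunits 9 were positive and 7 higher and 1 lower without overlap (median 0.16). Dpy30 was among the higher ones (133 and 125 against 148 and 169 TPM), and the lower one, named after its values were seen, was Ash2l (91.7 and 88.0 against 79.8 and 78.8 TPM). Subunits of acetyltransferase complexes had a median of 0.08 over 43 genes, 11 higher and 3 lower without overlap, of which the higher count is near the share of all genes. Other histone methyltransferases had a median of 0.08 over 18 genes (7 higher, 2 lower), with Ehmt1, a writer for lysine 9 of histone H3, at 46.3 and 43.5 against 61.7 and 58.1 TPM. Other acetyltransferases had a median of 0.12 over 12 genes (4 higher, 1 lower) and included Cdyl at 16.3 and 17.7 against 23.1 and 21.3 TPM and Ep300 at 36.1 and 41.4 against 46.7 and 56.3 TPM. Other demethylase-family genes had a median of 0.18 over 7 (3 higher, 0 lower), with Jmjd1c at 74.6 and 51.5 against 107 and 106 TPM. The 4 partners of Prmt5 had a median of -0.06, 0 higher and 1 lower without overlap. In limma 0 genes of these lists passed at an adjusted p under 0.05.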

How the data were processed

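Values deposited by the authors were gene-level TPM (per the file headers) for 2 wild-type and 2 Stk40-/- libraries, and 0 per-sample columns were left unused. The submitters' processing notes name CASAVA 1.7, Salmon 0.8.2 and a human build (hg38), although gene IDs are mouse; the annotation behind the values is thus unknown. Reads were pairs of 100 or 150 bases from 2 instruments, per the labels, and which library had which is not given, so read length and genotype cannot be told apart. Salmon divides reads among similar transcripts. Groups came from sample titles. Positions and lengths came from GENCODE M21 on GRCm38 by Ensembl ID (66 of 66 members matched), and promoters from RefSeq on GRCm38.

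The 15739 genes averaging 1 TPM or more entered limma (version 3.58.1, R 4.3.3) as log2(TPM + 1), with an intensity trend, no block and Benjamini-Hochberg adjustment at 0.05, after a check on simulated data. The smallest p of an exact permutation test of 2 against 2 is 0.333. The rule for named members took the 5 per class with the smallest unadjusted p, the most abundant of each class, and those on X and chromosome 16. The other members are given by their levels. Named members printed without a p had limma adjusted p from 0.484 (Kdm2a) to 0.998 (Prmt1). Genes named from partner lists were among the 3 of their list with the smallest p, except Ash2l. The overlapping genes Dek, Psmd13, Mafg and the Kdm6b antisense gene were named after their values were seen, as were the neighbours of Hdac1. The members and lists were chosen with earlier results of these data known. Length bins, neighbours within 1 Mb, the members outside X, 16 and 4 and the deacetylases without Hdac1 and Hdac6 were added after the values were seen. Alternatives were other pseudocounts, filters, scalings, moderation without trend, protein-coding genes only, a replicate block and leaving out each library.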

Additional observations from a re-analysis of the deposited data

How the results depend on the processing

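No member passed limma at an adjusted p under 0.05 in any of 13 other settings (0 in each), and the fit limited to protein-coding genes called 3 genes, none of them a member. Members lower without overlap numbered 5 (16.6% of all genes), 9 with median-of-ratios size factors (21.9% of all genes) and 3 outside X and chromosomes 16 and 4. With 1 library left out they numbered from 7 to 11, beside 26.6% to 31.8% of all genes. A lone library makes separation easier, and higher ones then numbered from 41 to 45, beside 39.9% to 44.1% of all genes. Members at an unadjusted p under 0.05 and higher numbered 16, and from 5 to 8 with 1 library left out. The median of the members, 0.18, was 0.12 with median-of-ratios size factors, 0.10 with length bins centred and from 0.19 to 0.22 with 1 library left out. It exceeded the median of all genes by 0.12 in the main setting and by 0.11 to 0.17 in the others. Of all 64 tested members 16 changed sign when a library was left out, and the groups overlapped in each of the 16; Kdm3a also did so with median-of-ratios size factors. Among the 35 members named by rule 5 did, over leave-one-out ranges of -0.22 to 0.11 for Hdac8, -0.0131 to 0.0123 for Prmt1, -0.0374 to 0.242 for Prmt3, -0.0634 to 0.516 for Setd4 and -0.10 to 0.46 for Sirt4, as did the median of the sirtuins (-0.103 to 0.0721, and -0.183 with median-of-ratios size factors). The replicate block left 0 members called and 18 higher at an unadjusted p under 0.05, beside 8.15% of all genes. Without the block these were 16 members and 6.48% of all genes. Deviations of equally numbered libraries correlated at r = 0.09 over 15739 genes, and with 2 pairs the numbers are not shown to pair the libraries. TPM keeps no depth, so that the precision of low genes such as Hdac9 or Kdm7a is unknown.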
